A study of Mus musculus with 20 samples.

Results

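Livers hold a small set of receptors that sense drugs and other foreign compounds, and 9 genes of that system are described here. They are the nuclear receptors CAR (NR1I3) and PXR (NR1I2), their shared partner RXRA, the aryl hydrocarbon receptor AHR, and 5 genes that these receptors work with or are known to induce outside the cytochrome P450s, namely POR, ALAS1, ABCC2, ABCC3 and the citrate transporter SLC13A5. The genes were selected by symbol, ignoring case, and are 9 of 60607 human genes in the table of the humanized mouse livers and 9 of 55335 mouse genes in the table of the WT mouse livers. NR1I3 and SLC13A5 were chosen because their levels respond differently to HuR knockdown in the 2 species, so their values are given as a description with no test. The other 7 genes were compared in a fit over all genes.

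HuR (ELAVL1) is an RNA-binding protein that binds AU-rich and U-rich stretches of messenger RNAs, and its level was lowered with an adenovirus that carries an shRNA. The 20 livers came from 4 humanized mice with HuR knockdown, 4 humanized mice given the LacZ control virus, 6 WT mice with HuR knockdown and 6 WT mice given the LacZ control virus. Every mouse received 2000000000 pfu (plaque-forming units) of virus intravenously, and livers were taken 7 days later after 4 h of fasting. WT mice were male C57BL/6 animals bought at 8 weeks of age and acclimatized for 10 to 14 days. The humanized mice, knockdown and control alike, were TK-NOG mice, highly immune-deficient animals that express a viral thymidine kinase from a mouse albumin promoter, so that ganciclovir (25 mg/kg, given at 8 to 9 weeks of age) kills their own hepatocytes. Cryopreserved primary human hepatocytes were then transplanted, and mice with over 0.5 mg/ml of human albumin in serum after 8 to 12 weeks were used. The host keeps mouse cells in the liver, and the human table holds human genes alone. The study describes the hepatocyte donors as few and gives no number of them. Humanized and WT livers differ in species, shRNA, host strain, transplantation and table at once, and these cannot be told apart in any difference between the 2 sets.

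CAR and PXR bind drug-like ligands, pair with RXRA and switch on genes for drug oxidation, conjugation and export, and CAR also moves from cytosol to nucleus after indirect activation. AHR pairs with ARNT and is known for inducing the CYP1 family. POR passes electrons to every microsomal P450, ALAS1 makes the first precursor of their heme, ABCC2 exports conjugates into bile, ABCC3 exports them back into blood, and SLC13A5 takes up citrate from blood as a carbon source for lipid synthesis.

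HuR mRNA was lower in all knockdown livers. ELAVL1 had 2.37 to 4.05 TPM (transcripts per 1000000) in the 4 humanized livers with HuR knockdown and 4.77 to 6.17 TPM in the 4 controls, so that the mean was 61.0% of control. Elavl1 had 3.72 to 5.62 TPM in the 6 WT livers with HuR knockdown and 8.58 to 10.7 TPM in the 6 controls, 51.7% of control. Reads recovered from the TPM ranged from 1432608 to 10468063 per humanized library and from 1299692 to 41009093 per WT library. The genes with recovered reads held 27.8 to 35.0% of the TPM in humanized libraries and 92.4 to 94.3% in WT libraries. The 2 ranges therefore cover unlike parts of the libraries and do not compare their depth. Among the humanized livers, HuR knockdown replicate 4 and LacZ replicate 2 stood apart. Both were the deepest libraries of their groups, both had 49.1% of their TPM in mitochondrial ribosomal RNA against 27.2 to 36.0% in the other 6, and each resembled the other most (r = 0.965 across genes) although they belong to different groups. WT LacZ replicate 2 was the shallowest WT library. Human hepatocyte markers summed to 43769 to 94904 TPM in the humanized livers, whereas the 8 human macrophage markers summed to at most 1.24 TPM, with VSIG4, MARCO, C1QA, C1QB and CLEC4F listed at 0 throughout. Endothelial, stellate, lymphocyte and erythroid marker sums were at most 1.05 TPM, and the 4 cholangiocyte markers summed to 4.71 to 34.9 TPM.

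The mouse genes can be placed on the mouse genome (GRCm38). Nr1i3 lies at chr1:171213970-171220701 on the plus strand, Slc13a5 at chr11:72241989-72267222 on the minus strand, Abcc2 at chr19:43782192-43840740 on the plus strand and Rxra at chr2:27676440-27762957 on the plus strand. Because HuR is known for AU-rich stretches in 3′ untranslated regions (UTRs), ATTTA and the longer TATTTAT, which contains it, were counted on the sense strand in the principal transcript of each gene. The Abcc2 3′ UTR of 3183 bases held 12 ATTTA and 3 TATTTAT. Ahr held 7 ATTTA and 1 TATTTAT in 2715 bases, Rxra held 1 ATTTA in 3269 bases, and Abcc3 held 1 in 369 bases. The 127 bases of Nr1i3, the 1516 of Slc13a5, the 922 of Nr1i2, the 579 of Alas1 and the 369 of Por held 0 of either. TTTTTTT was counted with overlaps, so that 1 long run of T gives several matches. Slc13a5 held 11 such matches, Abcc3 held 8, Abcc2 and Ahr held 4 each, and Alas1, Nr1i2, Nr1i3, Por and Rxra held 0. Of 11069 mouse genes tested with a 3′ UTR of at least 50 bases, 67.5% held ATTTA, 28.0% held TATTTAT and 42.0% held TTTTTTT, and the median length was 1009 bases. The first TATTTAT, or else the first ATTTA, of each gene that holds one is shown in capitals, since these are the letters HuR is known to bind, and a match of letters is no measured binding.
Abcc2, base 3102 of the 3′ UTR: acagccagttcTATTTATctatttatctat
Ahr, base 801: tcaaagtccacTATTTATtgtgtaatatac
Abcc3, base 60: atgagtggggacATTTAgagttttttttaa
Rxra, base 1954: aattggagcttcATTTAaccagaccttcag

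Promoters were read from RefSeq windows of 300 bases (GRCm38.p6), and 7 of the 9 genes had 10 windows between them. AGGTCA and AGTTCA, half-sites known for receptors that pair with RXRA, and TNGCGTG, the core that AHR with ARNT is known to bind, were searched on both strands. AGGTCA was in 16.3% of all 32851 windows and in 2 of the 10, AGTTCA was in 14% and in 0, and TNGCGTG was in 5.1% and in 1. The 250 bases before the Nr1i3 start (chr1:171213720-171213969, plus strand) are shown because Nr1i3 is the receptor chosen for its response, and they held none of the 3 motifs. The 30 bases around the AGGTCA of Abcc2 (chr19:43782247-43782276, plus strand), of the second AGGTCA of Rxra (chr2:27709232-27709261, plus strand) and around the TNGCGTG match of Slc13a5, which reads in the reverse direction (chr11:72266555-72266584, minus strand), are shown with the motif in capitals.
Nr1i3: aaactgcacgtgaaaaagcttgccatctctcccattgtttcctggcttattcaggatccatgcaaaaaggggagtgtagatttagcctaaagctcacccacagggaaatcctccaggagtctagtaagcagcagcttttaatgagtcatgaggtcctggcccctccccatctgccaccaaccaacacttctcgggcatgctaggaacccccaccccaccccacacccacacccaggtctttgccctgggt
Abcc2: tgtcaggatgaaAGGTCAggagacttgcct
Rxra: gggtggcaggaaAGGTCAgtcactctctgt
Slc13a5: tcagtctccctttCACGCGAtggattcggc

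CAR mRNA was higher with HuR knockdown in humanized livers and lower in WT livers. Human NR1I3 (ENSG00000143257.11) had 26.8, 23.5, 27.6 and 26.2 TPM in HuR knockdown replicates 1 to 4 and 14.3, 18.3, 20.04 and 14.1 TPM in LacZ replicates 1 to 4. All 4 knockdown livers lay above all 4 controls, and the means were 26.0 ± 1.78 TPM (SD, n = 4) and 16.7 ± 2.95 TPM (SD, n = 4), a log2 fold change of 0.62 with a standard error of 0.149 on the scale of log2(TPM + 1). These values rest on 76 to 960 recovered reads per library. Mouse Nr1i3 (ENSMUSG00000005677.14) ranged from 124 to 169 TPM, with a median of 153 TPM, in the 6 WT livers with HuR knockdown and from 161 to 291 TPM, with a median of 247 TPM, in the 6 controls. The groups overlapped through 1 control, LacZ replicate 5 at 161 TPM, while the other 5 controls had 216 TPM or more and lay above every knockdown liver. The mouse log2 fold change was −0.63 with a standard error of 0.131, and the mean was 63.8% of control.

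Both values moved little between settings. The human log2 fold change stood between 0.55 and 0.71 when each humanized liver was left out in turn and the mouse one between −0.74 and −0.57 when each WT liver was left out. In mouse, the protein-coding gene Tomm40l, which encodes an import channel of the mitochondrial outer membrane, overlaps Nr1i3 on the other strand, and the strand setting of the authors' counting is not given in the sources used here. Its level was 5.11 to 8.56 TPM with HuR knockdown and 3.38 to 11.2 TPM in controls. Its human namesake TOMM40L had 4.14 to 6.33 TPM in the 4 humanized knockdown livers and 10.02 to 15.5 TPM in the 4 controls, the reverse of NR1I3 there (log2 fold change −0.94, unadjusted p = 0.000546, adjusted p = 0.0881, limma). TOMM40L was picked after its values were seen. Where counting ignores strand, reads of such a pair cannot be told apart.

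PXR mRNA showed smaller differences. Human NR1I2 (ENSG00000144852.17) had 13.7, 16.3, 23.03 and 16.1 TPM in HuR knockdown replicates 1 to 4 and 19.5, 18.3, 21.5 and 20.96 TPM in LacZ replicates 1 to 4. Knockdown replicate 3 was the highest of the 8 livers and the other 3 knockdown livers were the lowest, so the groups overlapped. The log2 fold change of −0.22 (95% interval −0.60 to 0.15) did not pass the test (unadjusted p = 0.208, limma). It did pass without HuR knockdown replicate 3, at −0.36 (unadjusted p = 0.0288, limma). Mouse Nr1i2 ranged from 94.4 to 119 TPM (median 113 TPM) in WT livers with HuR knockdown and from 81.1 to 105 TPM (median 102 TPM) in controls. Here 5 of the 6 knockdown livers lay above every control and replicate 2, at 94.4 TPM, lay among them. The mouse log2 fold change was 0.18 with a standard error of 0.077 (unadjusted p = 0.0378, adjusted p = 0.276, limma). This call held in 6 of 12 fits with 1 WT liver left out and was lost without HuR knockdown replicates 1, 3, 4 or 5 or LacZ replicates 1 or 3 (p from 0.0559 to 0.0851). It held in 6 of 9 other settings with every liver kept and was lost with median-of-ratios scaling, quantile scaling and the replicate block (p up to 0.0905).

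RXRA rose with HuR knockdown in humanized livers. It had 28.4, 28.97, 31.5 and 27.7 TPM in HuR knockdown replicates 1 to 4 and 19.0, 21.4, 22.5 and 20.7 TPM in LacZ replicates 1 to 4. The groups did not overlap and each spanned under 4 TPM. The mean was 139% of control, with a log2 fold change of 0.46 and a standard error of 0.118 (unadjusted p = 0.00335, adjusted p = 0.161, limma). It passed the unadjusted threshold in all 9 other settings with every liver kept and in all 8 fits with 1 liver left out. In WT livers Rxra ranged from 207 to 267 TPM (median 221 TPM) with HuR knockdown and from 187 to 242 TPM (median 222 TPM) in controls. The medians differed by less than the spread within either group, and the log2 fold change was 0.07 (95% interval −0.10 to 0.25, unadjusted p = 0.370, limma). HuR knockdown replicate 6 was the highest WT liver, at 267 TPM, and the other 5 knockdown livers lay between 207 and 222 TPM.

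AHR varied more between livers than between groups. Human AHR had 18.7, 19.0, 15.3 and 7.95 TPM in HuR knockdown replicates 1 to 4 and 17.4, 8.34, 20.8 and 13.4 TPM in LacZ replicates 1 to 4. Its lowest values came from the pair of libraries that stood apart, knockdown replicate 4 and LacZ replicate 2. The log2 fold change was 0.02, with a 95% interval of −0.70 to 0.75, and changed sign with the liver left out. Mouse Ahr ranged from 29.9 to 47.9 TPM (median 42.5 TPM) with HuR knockdown and from 31.6 to 48.6 TPM (median 38.9 TPM) in controls, a log2 fold change of 0.04 with a 95% interval of −0.22 to 0.30.

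**Figure D1:**
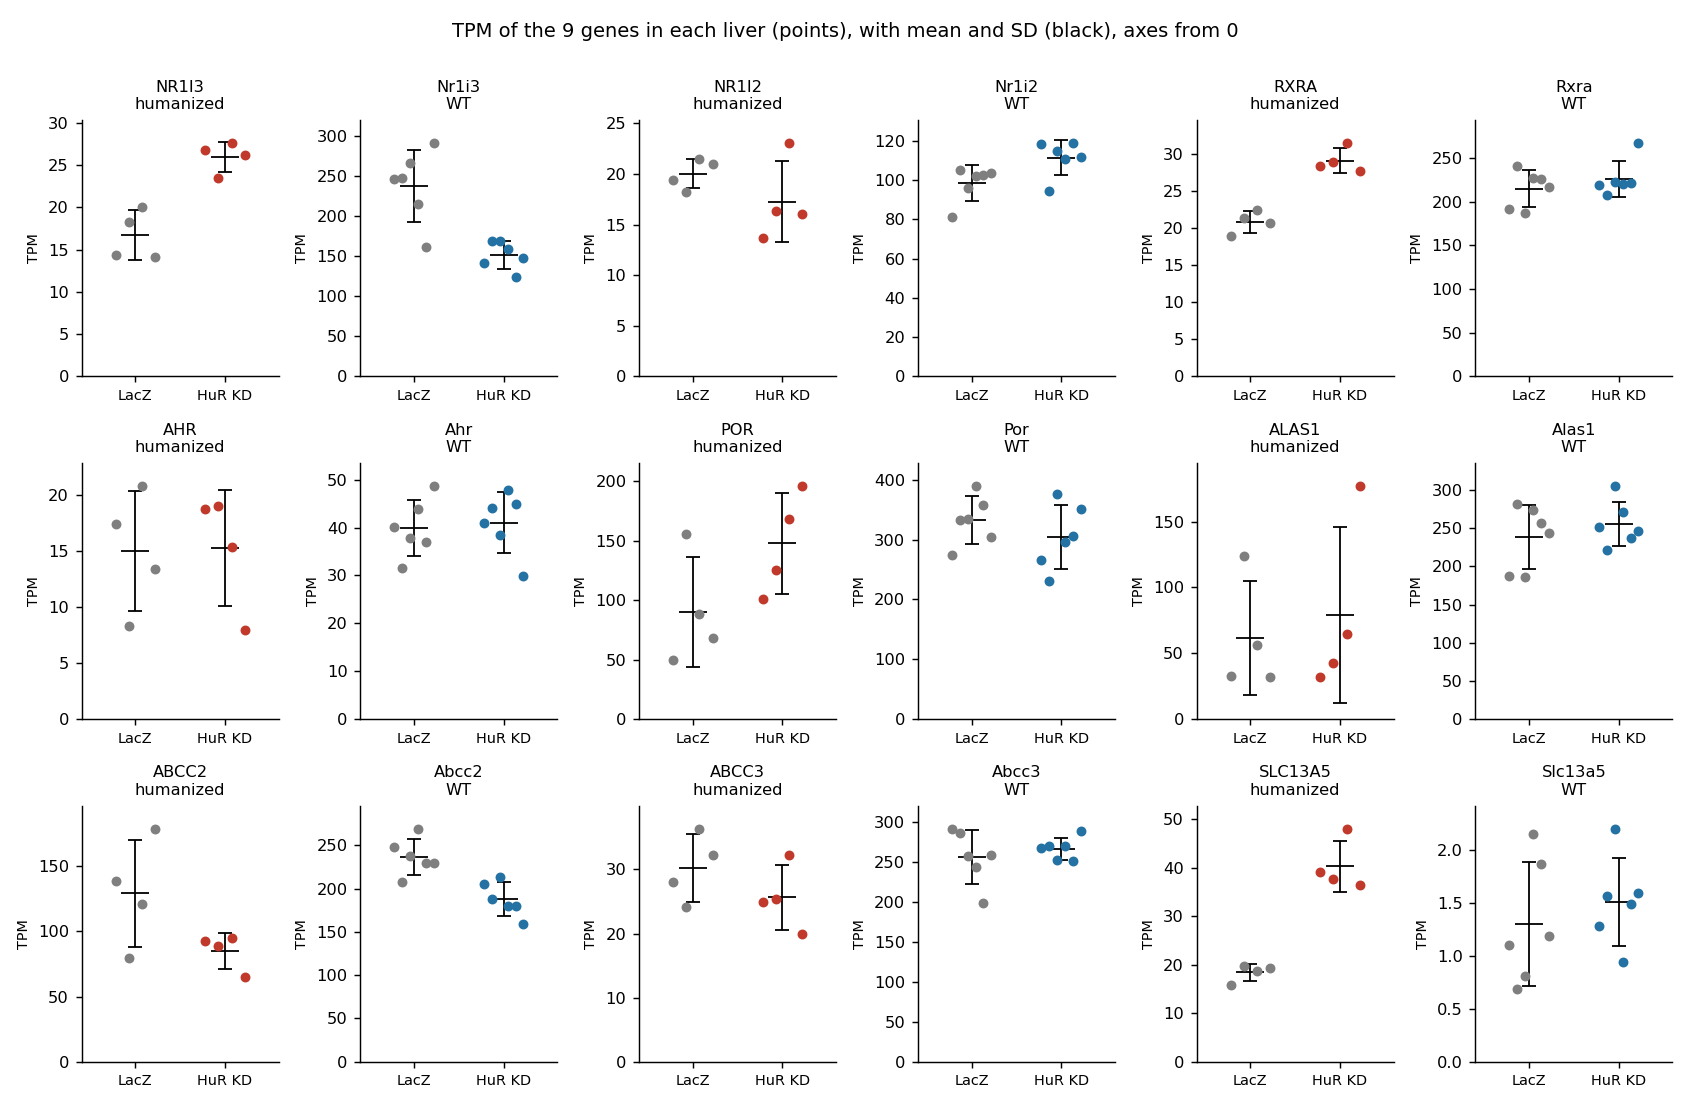
TPM of each of the 9 genes in every liver, the human gene in 8 humanized livers and the mouse gene in 12 WT livers, with separate axes that start at 0. Points are livers, black lines the mean and SD of a group. Among the human genes NR1I3, RXRA and SLC13A5 show 4 knockdown livers above 4 controls, while Nr1i3 and Abcc2 in WT livers are lower with HuR knockdown and overlap at the edges.

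POR, the electron donor of the P450s, rose in humanized livers by the unadjusted test. It had 101, 126, 168 and 196 TPM in HuR knockdown replicates 1 to 4 and 49.5, 155, 87.9 and 68.3 TPM in LacZ replicates 1 to 4. The knockdown livers lay above 3 of the 4 controls, and LacZ replicate 2 lay above 2 of the 4 knockdown livers. The mean was 164% of control, with a log2 fold change of 0.79 and a 95% interval of 0.02 to 1.55 (unadjusted p = 0.0460, adjusted p = 0.423, limma). Of 8 fits with 1 liver left out, the call held only without HuR knockdown replicate 1 and without LacZ replicate 2, and p reached 0.128 without LacZ replicate 1. It held in 6 of 9 other settings with every liver kept (p up to 0.0576). Without both libraries that stood apart the log2 fold change was 0.94 (unadjusted p = 0.00698, limma). In WT livers Por ranged from 232 to 376 TPM (median 300.4 TPM) with HuR knockdown and from 274 to 389 TPM (median 334 TPM) in controls. The groups overlapped over most of their range and the log2 fold change was −0.14 (95% interval −0.39 to 0.12, unadjusted p = 0.278, limma).

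ALAS1, the rate-limiting enzyme of heme synthesis in liver, spanned the widest range among humanized livers, in fold, of the 9 genes. It had 32.1, 42.2, 64.9 and 177 TPM in HuR knockdown replicates 1 to 4 and 32.9, 124, 56.6 and 31.7 TPM in LacZ replicates 1 to 4. Its 2 highest values came again from knockdown replicate 4 and LacZ replicate 2, and the other 6 livers stayed between 31.7 and 64.9 TPM. The log2 fold change was 0.27, with a 95% interval of −1.02 to 1.55 (unadjusted p = 0.648, limma), and −0.22 without HuR knockdown replicate 4. In WT livers Alas1 ranged from 222 to 305 TPM (median 249 TPM) with HuR knockdown and from 186 to 282 TPM (median 250.2 TPM) in controls, and the log2 fold change of 0.11 did not pass the test (95% interval −0.14 to 0.37, unadjusted p = 0.355, limma).

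**Figure D2:**
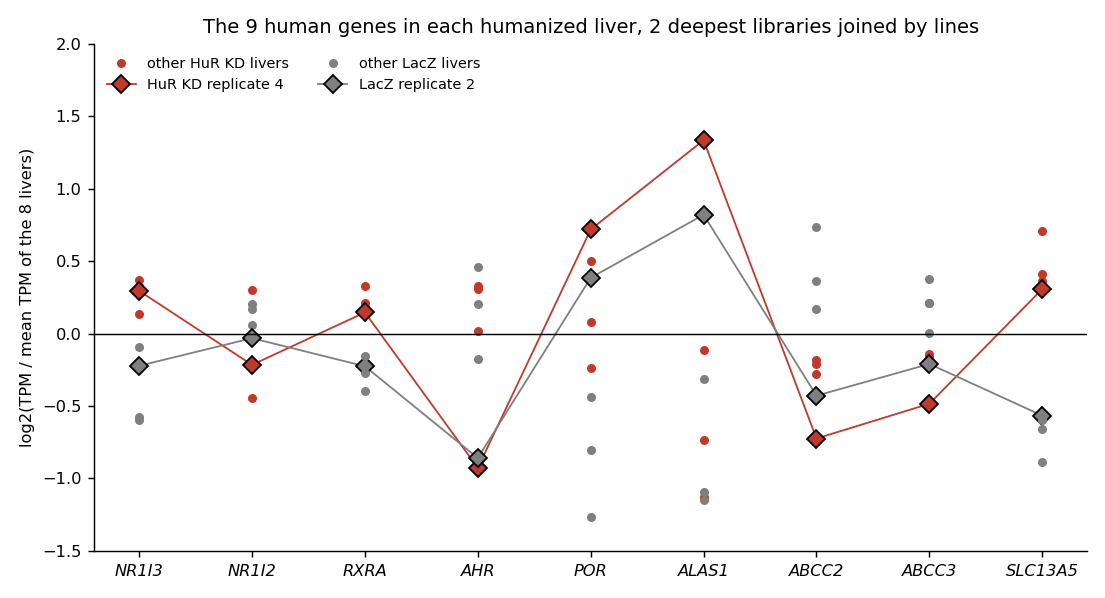
Log2 of the TPM of each human gene over its mean across the 8 humanized livers, with HuR knockdown livers in red and LacZ livers in grey. Diamonds joined by lines mark HuR knockdown replicate 4 and LacZ replicate 2, which are the highest of their groups for POR and ALAS1 and the lowest for AHR, ABCC2 and ABCC3, while for NR1I3, RXRA and SLC13A5 each stays with its own group.

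ABCC2, the exporter of conjugates into bile, fell in both sets by the unadjusted test. In humanized livers it had 92.6, 88.4, 94.7 and 64.9 TPM in HuR knockdown replicates 1 to 4 and 138, 79.7, 121 and 179 TPM in LacZ replicates 1 to 4. LacZ replicate 2 lay within the knockdown range and the other 3 controls lay above it. The mean was 65.9% of control and the log2 fold change was −0.55, with a 95% interval of −1.10 to −0.01 (unadjusted p = 0.0470, adjusted p = 0.425, limma). This call held in 1 of 8 fits with 1 liver left out, that without LacZ replicate 2 (log2 fold change −0.77), with p from 0.0551 to 0.132 in the other fits, and in 4 of 9 other settings. Without both libraries that stood apart it was −0.64 (unadjusted p = 0.0055, limma). In WT livers Abcc2 ranged from 159 to 214 TPM (median 184 TPM) with HuR knockdown and from 207 to 269 TPM (median 234 TPM) in controls. Here 5 of the 6 controls lay above every knockdown liver, and LacZ replicate 2, the shallowest library, lay at 207 TPM. The log2 fold change was −0.34 with a standard error of 0.081 (unadjusted p = 0.00118, adjusted p = 0.0682, limma), and it passed the unadjusted threshold in all 9 other settings and in all 12 fits with 1 liver left out.

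ABCC3, which exports conjugates across the side of the cell that faces blood, did not pass the test in either set. Human ABCC3 had 24.9, 25.4, 32.3 and 19.96 TPM in HuR knockdown replicates 1 to 4 and 28.0, 24.1, 36.3 and 32.3 TPM in LacZ replicates 1 to 4, with a log2 fold change of −0.23 (95% interval −0.64 to 0.18, unadjusted p = 0.234, limma). The lowest value of each group came from the pair of libraries that stood apart, knockdown replicate 4 and LacZ replicate 2. Mouse Abcc3 ranged from 252 to 289 TPM (median 269 TPM) with HuR knockdown and from 199.6 to 292 TPM (median 259 TPM) in controls, with a log2 fold change of 0.07 (95% interval −0.12 to 0.25). Its sign changed without WT LacZ replicate 5, the lowest control.

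The citrate transporter was higher with HuR knockdown in humanized livers and had a low level in WT livers. SLC13A5 (ENSG00000141485.16) had 39.2, 37.8, 48.1 and 36.4 TPM in HuR knockdown replicates 1 to 4 and 15.9, 19.9, 18.6 and 19.4 TPM in LacZ replicates 1 to 4. The lowest knockdown liver lay well above the highest control. The means were 40.4 ± 5.25 TPM (SD, n = 4) and 18.5 ± 1.78 TPM (SD, n = 4), a mean of 219% of control and a log2 fold change of 1.08 with a standard error of 0.139. The value stood between 1.00 and 1.13 with each liver left out in turn. Mouse Slc13a5 (ENSMUSG00000020805.14) ranged from 0.945 to 2.20 TPM (median 1.53 TPM) with HuR knockdown and from 0.686 to 2.15 TPM (median 1.15 TPM) in controls. The groups overlapped over nearly their whole range, and the log2 fold change was 0.15 with a standard error of 0.175. Only 2 reads were recovered in WT LacZ replicate 2 and 42 to 165 in the other WT libraries, and on the scale of log2(TPM + 1) the change of a gene this low is understated. At log2(TPM + 0.1) the change was 0.27.

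**Figure D3:**
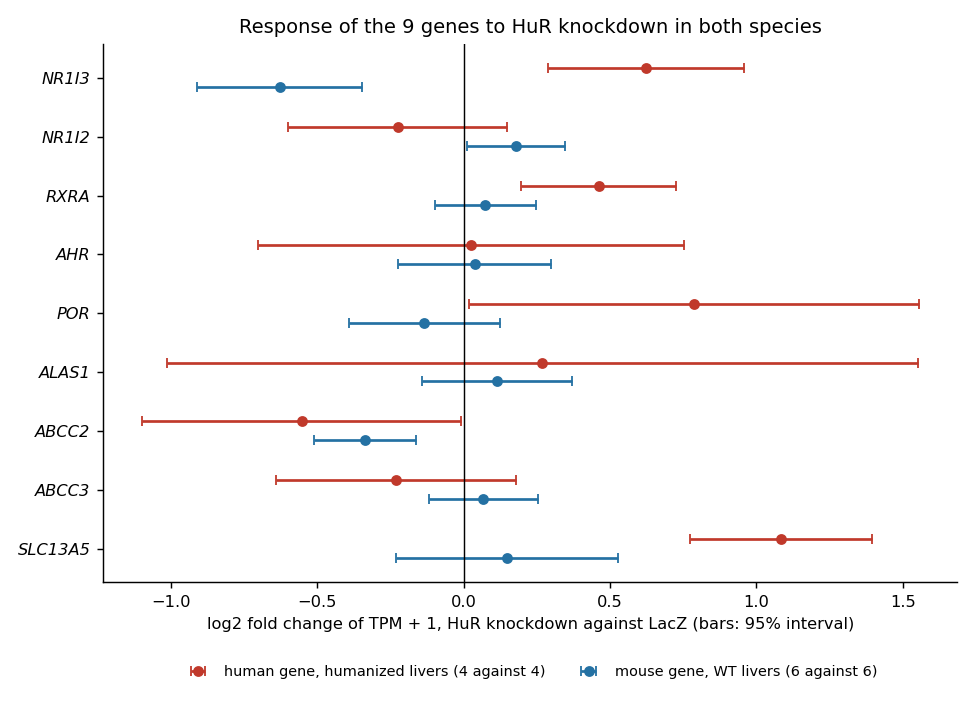
Log2 fold change of TPM + 1 between HuR knockdown and LacZ livers for each gene, human in red (4 against 4) and mouse in blue (6 against 6), with bars for the 95% interval. For NR1I3 and SLC13A5, chosen for their response, the intervals describe the estimate and are no test, whether or not they reach 0. NR1I3 lies at 0.62 in human and −0.63 in mouse, SLC13A5 at 1.08 and 0.15, and ABCC2 is below 0 in both.

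All 9 genes passed the filter of a mean of 1 TPM in both sets. In humanized livers 2 of the 7 genes tested were higher with HuR knockdown at unadjusted p under 0.05 (RXRA and POR), where 3.6% of the 12738 genes tested were higher, and 1 was lower (ABCC2), where 7.87% were lower. In WT livers 1 of 7 was higher (Nr1i2), beside 9.09% of 15090 genes, and 1 was lower (Abcc2), beside 6.94%. With adjusted p under 0.05, 0 of 7 were called in either set, beside 0.212% of human and 0.888% of mouse genes. The groups did not overlap for 3 of the 9 human genes, all with knockdown above control (2.13% of all genes tested lay so, and 5.03% below), and 2 of these 3 are the genes chosen for their response. They overlapped for all 9 mouse genes (1.25% of all mouse genes lay above without overlap and 1.23% below). The median log2 fold change over the 7 tested genes was 0.02 in humanized and 0.07 in WT livers, beside −0.05 and 0.03 over all genes tested. Of the human genes called at the unadjusted threshold 31.3% were higher, and 47.3 to 49.5% under median-of-ratios, protein-coding and quantile scaling and voom on recovered reads, while without HuR knockdown replicate 3 it was 20.8%.

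The difference between the 2 responses was tested for the 7 genes in a joint fit over 8202 pairs of genes with the same symbol. The fit takes 1 spread per gene for both sets. Where humanized livers scattered more, its standard errors and p-values can be too small, which bears on the calls and on the share over all pairs. The human fold change alone had a standard error of 0.341 for POR and 0.166 for NR1I2, above those of their differences. POR had a human minus mouse log2 fold change of 0.92 with a standard error of 0.323 (unadjusted p = 0.00937, adjusted p = 0.103, limma), and RXRA one of 0.39 with a standard error of 0.134 (unadjusted p = 0.00848, adjusted p = 0.0983, limma). NR1I2 differed the other way, at −0.40 with a standard error of 0.164 (unadjusted p = 0.0226, adjusted p = 0.169, limma). These 3 of 7 stand beside 19.7% of all pairs at the unadjusted threshold, and with adjusted p under 0.05 it was 0 of 7 beside 5.01%. RXRA and POR passed in all 20 fits with 1 liver left out, and NR1I2 in 19, all but that without humanized HuR knockdown replicate 1 (unadjusted p = 0.0702, limma). Without humanized LacZ replicate 2 the number of genes past the threshold rose to 5, with ABCC2 at −0.43 and ABCC3 at −0.40. ABCC2 had a difference of −0.22 (95% interval −0.69 to 0.25), ABCC3 one of −0.30 (−0.68 to 0.08), ALAS1 one of 0.16 (−0.89 to 1.20) and AHR one of −0.01 (−0.65 to 0.63), and none of these 4 passed. For the 2 genes chosen on it, the difference was 1.25 for NR1I3 and 0.94 for SLC13A5.

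The order of levels within each group follows from TPM, which is per length. In humanized controls ABCC2 was highest at 129 ± 41.0 TPM (SD, n = 4), before POR at 90.3 ± 46.2 TPM and ALAS1 at 61.3 ± 43.3 TPM, and the ranges of these neighbours overlapped. ABCC3 came next at 30.2 TPM and did not overlap RXRA at 20.9 TPM, after which NR1I2, SLC13A5, NR1I3 and AHR (20.04 to 15.0 TPM) overlapped from one to the next. With HuR knockdown POR was first at 148 ± 42.4 TPM (SD, n = 4), SLC13A5 moved from the seventh place to the fourth, and NR1I3 from the eighth to the sixth. In WT controls Por, Abcc3, Alas1, Nr1i3, Abcc2 and Rxra followed each other from 332 to 215 TPM with overlapping ranges. Nr1i2 at 98.4 TPM, Ahr at 39.8 TPM and Slc13a5 at 1.30 TPM stood below without overlap. With HuR knockdown Nr1i3 moved from the fourth place to the sixth, at 152 ± 17.8 TPM (SD, n = 6). The 2 tables were scaled apart, so levels are not set against each other across species.

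The genes whose levels followed NR1I3 and SLC13A5 most closely within groups were found by Pearson's r of log2(TPM + 1) after subtracting group means, as a description. Over the 8 humanized livers and 6447 genes with a mean of at least 5 TPM, ZDHHC12 (r = 0.977, rho = 0.905), MYH14 (r = 0.965, rho = 0.976) and ATP5PO (r = 0.960, rho = 0.905) were closest to NR1I3. ANGPTL4 (r = 0.970, rho = 0.976), ERAP2 (r = 0.960, rho = 0.976) and C1orf43 (r = 0.954, rho = 1) were closest to SLC13A5, and for all 6 genes r stayed at 0.958 or above over the 6 livers left without the pair that stood apart. Over 12 WT livers and 9554 genes, Colec11 (r = 0.902, rho = 0.881), Cyp2c54 (r = 0.899, rho = 0.783) and Cd300lg (r = 0.891, rho = 0.874) were closest to Nr1i3. Klhdc10 (r = 0.919, rho = 0.748), Slc8a1 (r = 0.891, rho = 0.790) and Scp2 (r = 0.891, rho = 0.874) were closest to Slc13a5. The libraries share depth and scaling, and the top of so many correlations is high by selection.

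Of 20 tested human genes of this list (coactivators, corepressors, chaperones and other receptors) 0 were higher and 3 lower, with a median log2 fold change of −0.05. NR3C1, the glucocorticoid receptor, was 12.0 ± 2.85 TPM (SD, n = 4) after knockdown against 19.2 ± 1.70 TPM (log2 fold change −0.66, unadjusted p = 0.00386, limma) and RACK1, a scaffold protein of the ribosome, 71.8 ± 9.57 TPM (SD, n = 4) and, in controls, 97.2 ± 5.55 TPM (log2 fold change −0.44, unadjusted p = 0.00919, limma). The third was HSP90AA1, a chaperone of the unliganded receptors. Of 22 mouse genes 4 were higher (Rack1, Ncoa2, Dnajc7 and Prmt1) and 1 was lower (Nr3c1), with a median of 0.08. Rack1 rose by 0.26 on the log2 scale (unadjusted p = 0.0120, limma) and Ncoa2, a coactivator, by 0.16 (unadjusted p = 0.0210, limma). Without LacZ replicate 5 the p of Ncoa2 from limma was 0.0512.

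Around AHR, 2 of the 3 CYP1 enzymes rose in humanized livers. CYP1A1 was 24.3 ± 9.09 TPM (SD, n = 4) after knockdown and 6.57 ± 2.48 TPM in controls, without overlap (log2 fold change 1.70, standard error 0.327, unadjusted p = 0.000508, adjusted p = 0.0866, limma), and CYP1A2 was 151 TPM and 95.7 TPM, also without overlap. CYP1B1 did not pass, with a log2 fold change of 0.92 (95% interval −0.58 to 2.42, unadjusted p = 0.198, limma) and overlapping groups. PTGES3, a cochaperone of the unliganded receptor, was lower, at 21.3 ± 2.58 TPM (SD, n = 4) and, in controls, 41.9 ± 8.95 TPM (log2 fold change −0.93, unadjusted p = 0.000446, limma), and the quinone reductase NQO1 fell by 1.88 on the log2 scale with overlapping groups. These were 2 higher and 2 lower of 8 human genes tested (median −0.08). Of 6 mouse genes 1 was lower, Nqo1, by 0.23 on the log2 scale (median −0.02), and Cyp1a1 was under the filter at a mean of 0.753 TPM with HuR knockdown and 1.15 TPM in controls.

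The P450s that CAR and PXR induce were lower in WT livers for 4 of 10 genes tested and higher for 0, with a median log2 fold change of −0.38 and 1 of 10 above 0. Cyp2b10, the classical CAR target of mouse liver, was 10.1 ± 7.93 TPM (SD, n = 6) after knockdown and 25.6 ± 10.8 TPM in controls (log2 fold change −1.45, standard error 0.413, unadjusted p = 0.00405, adjusted p = 0.111, limma), and Cyp2a5 was 255 ± 68.7 TPM (SD, n = 6) and 406 ± 92.3 TPM (log2 fold change −0.68, unadjusted p = 0.00404, limma). Cyp3a11 and Cyp2c50 were the other two. In humanized livers 1 of 8 was lower and 0 higher (median −0.22). That gene was CYP3A5, at 203 ± 29.5 TPM (SD, n = 4) and 314 ± 90.2 TPM, whose call was lost without HuR knockdown replicate 2 or 4 or LacZ replicate 1 or 4 (p from 0.0554 to 0.0672), and the count ranged from 0 to 2 with a liver left out (0 without HuR knockdown replicate 2 or LacZ replicate 1, 2 without HuR knockdown replicate 1 or LacZ replicate 2) and was 2 without both libraries that stood apart. CYP2B6 (30.4 and 38.2 TPM) and CYP3A4 (505 and 723 TPM) did not pass. Near-identical P450 genes can share reads, and the Cyp2b, Cyp2c and CYP3A values carry that limit.

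Among conjugating and hydrolysing enzymes and other genes induced through CAR and PXR, 4 of 17 mouse genes were lower and 0 higher (median −0.11). Tsku was 59.4 ± 12.4 TPM (SD, n = 6) after knockdown against 112 ± 29.2 TPM (log2 fold change −0.89, adjusted p = 0.0376, limma) and Gadd45b 8.48 ± 1.32 TPM (SD, n = 6) and, in controls, 16.4 ± 4.29 TPM (log2 fold change −0.85, adjusted p = 0.0391, limma), and these 2, a secreted protein and a stress-response gene, are no conjugating enzymes. Ugt1a1 and Ces2c were the other two. Of 12 human genes 3 were lower and 1 higher (median 0.22), and ALDH1A1 was 1049 ± 231 TPM (SD, n = 4) in controls and 589 ± 91.8 TPM with the shRNA (log2 fold change −0.82, unadjusted p = 0.00241, limma) while UGT1A6 fell by 1.01 on the log2 scale. TSKU was the third lower gene and UGT1A1 the higher one. The count of 4 became 1 without HuR knockdown replicate 4 or LacZ replicate 1 or 4, 2 without HuR knockdown replicate 1, 2 or 3 or LacZ replicate 3, and 6 without LacZ replicate 2. The call of UGT1A6 was lost in 6 of 8 fits with 1 liver left out, all but those without HuR knockdown replicate 3 or LacZ replicate 2 (log2 fold change −1.02 to −0.86, p up to 0.0771), and UGT1A genes share exons, so their reads may be split between them.

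Of the other electron donors and heme partners of P450s 0 of 8 human genes were higher and 2 lower (median 0.07), FDXR by 0.52 and CYB5B by 0.76 on the log2 scale, and 1 of 8 mouse genes was higher (Cyb5r1, by 0.23) and 1 lower (Pgrmc1, by 0.21; median 0.01). CYB5B lost its call without HuR knockdown replicate 4 or LacZ replicate 1 or 4 (p from 0.0538 to 0.0551). The mouse count of 2 became 0 without HuR knockdown replicate 4 and 1 without HuR knockdown replicates 5 or 6 or LacZ replicates 1, 3 or 6, with Cyb5r1 lost in 6 of 12 fits (p up to 0.0903) and Pgrmc1 in 3 (p up to 0.0616). Heme synthesis and breakdown had 0 of 13 human (median −0.04) and 0 of 17 mouse genes (median 0.01) past the threshold in either direction, although 2 human genes passed without LacZ replicate 2 and 1 mouse gene without HuR knockdown replicate 6. Other hepatocyte transporters had 2 of 12 human genes higher, SLCO2B1 by 0.49 and ABCC6 by 0.44, and 1 lower, ABCB1 (median 0.05). In WT livers 0 of 15 were higher and 3 lower (median −0.02), with Abcg2 at −0.41 and Slco1b2 at −0.38. The human count of 3 transporters became 6 without LacZ replicate 2, and also without both libraries that stood apart, and 1 without HuR knockdown replicate 1 or 3 or LacZ replicate 1 or 4. ABCC6 lost its call in those 4 fits (log2 fold change 0.31 to 0.42, p from 0.0638 to 0.0873). Of genes that move or use citrate, 2 of 10 human genes were higher, CS (citrate synthase, from 18.1 ± 5.94 TPM to 30.5 ± 5.24 TPM, SD, n = 4) and FASN (fatty acid synthase, by 0.57 on the log2 scale), and 1 was lower, the mitochondrial citrate carrier SLC25A1 (median −0.01). The count of 3 became 1 without LacZ replicate 2 and 2 in 5 other such fits. FASN lost its call without HuR knockdown replicate 3 or LacZ replicate 1 or 2 (log2 fold change 0.45 to 0.49, p from 0.0590 to 0.0676). In WT livers 4 of 11 were higher and 1 lower (median 0.15), a count of 5 that became 3 without LacZ replicate 2 or 6 or HuR knockdown replicate 1 or 5, 2 without LacZ replicate 1 or HuR knockdown replicate 4, and 3 with median-of-ratios scaling or the replicate block. Acly, which cleaves cytosolic citrate, was at 101 ± 20.9 TPM (SD, n = 6) and 68.4 ± 6.59 TPM (log2 fold change 0.54, unadjusted p = 0.00181, limma), and Aco1, a cytosolic aconitase, had a log2 fold change of 0.25. Each of these counts reads beside the 3.6% higher and 7.87% lower of all human and the 9.09% and 6.94% of all mouse genes, and no count of a list was tested against them.

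**Figure D4:**
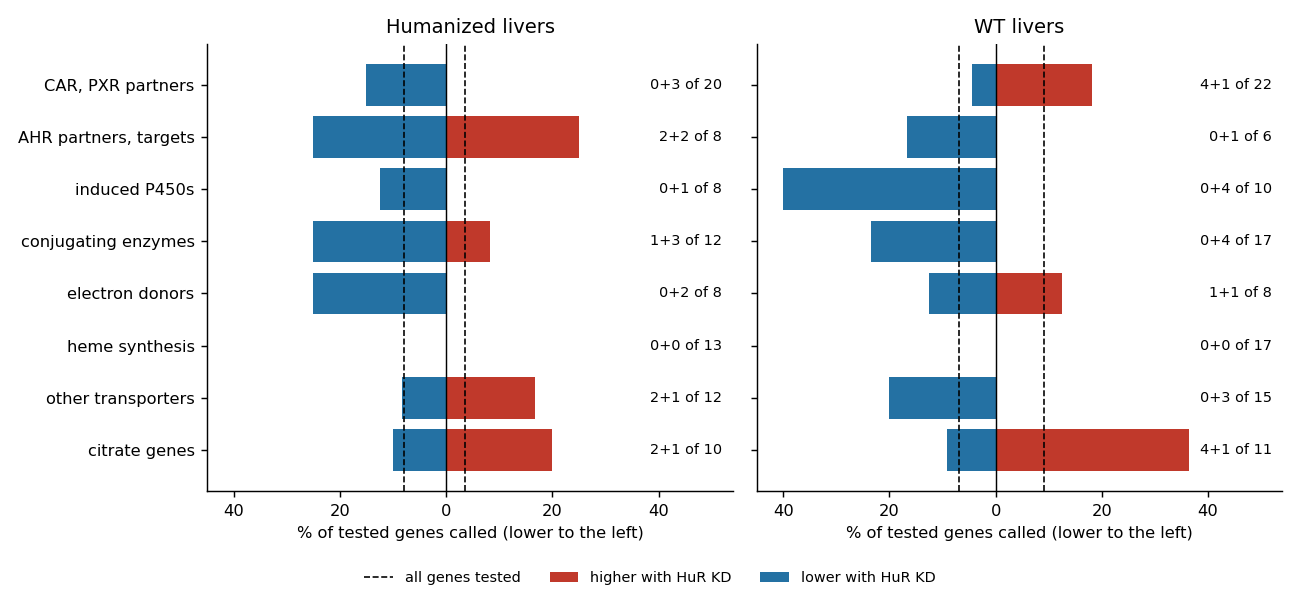
Share of the tested genes of each list that were higher (red, to the right) or lower (blue, to the left) with HuR knockdown at unadjusted p under 0.05, in humanized livers and in WT livers. Dashed lines mark the shares over all genes tested, and the text in each row gives the numbers higher and lower of those tested, for example 0 and 4 of 10 for induced P450s in WT livers.

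Some markers of liver zones moved with HuR knockdown in both sets, and the P450s that CAR induces are known for higher levels around central veins. In humanized livers 3 of 7 pericentral markers were higher (CYP2E1, OAT and SLC1A2) and 0 lower, and 5 of 7 had a log2 fold change above 0. GLUL went the other way without passing, at 82.1 TPM and, in controls, 161 TPM (log2 fold change −1.01, 95% interval −2.07 to 0.06, unadjusted p = 0.0611, limma), and AXIN2 was at −0.09. The list summed to 909 to 1290 TPM with HuR knockdown and 503 to 1043 TPM in controls, mostly from CYP2E1 (means 815 and 589 TPM). In WT livers 1 of 7 was higher (Glul) and 2 lower (Cyp2e1 and Axin2), and the list summed to 9984 to 11843 TPM with HuR knockdown and 12151 to 14458 TPM in controls, without overlap. Most of this sum was Cyp2e1 (means 8351 and 10721 TPM), whose groups did not overlap either. The median log2 fold change of the 7 genes was −0.02, with 3 of 7 above 0. Periportal markers were higher for 3 of 7 mouse genes (Hal, Pck1 and Hsd17b13; sums 6493 to 9058 TPM and 5275 to 7555 TPM) and for 0 of 7 human genes (747 to 1519 TPM and 762 to 1859 TPM). Macrophage markers were lower for 4 of 8 mouse genes (Adgre1, Cd5l, C1qb and Clec4f; 425 to 723 TPM and 600 to 821 TPM). Of the other lists in WT livers, 0 of 7 hepatocyte markers passed, 1 of 5 endothelial markers was higher (Stab2), 1 of 5 stellate markers lower (Lrat), 1 of 2 erythroid markers higher (Hba-a1), and 0 of 2 lymphocyte and 0 of 1 cholangiocyte markers passed. In humanized livers 0 of 8 hepatocyte markers passed and 1 of 3 cholangiocyte markers was lower (EPCAM). The marker counts read beside the 3.6% higher and 7.87% lower of all human genes and the 9.09% and 6.94% of all mouse genes. The part of these markers in the levels of Nr1i3, NR1I3 and their partners was not tested, and fewer cells of a type cannot be told apart from less RNA per cell in whole livers.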

How the data were processed

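RNA from 20 livers was sequenced by the authors as stranded total RNA, trimmed (cutadapt 2.8 in the methods, Trim Galore in the processing notes), aligned with HISAT2 and counted with featureCounts (subread 2.0) on GENCODE v32 for human and M23 for mouse, with a combined index for humanized livers (GRCh38 and mm10 in the processing notes). The deposited values are TPM, and each library adds up to 1000000.

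log2(TPM + 1) was compared with limma 3.58.1 (R 4.3.3; lmFit, eBayes with trend; two-sided), within each table, for genes that averaged 1 TPM or more (12738 human, 15090 mouse). Calls used unadjusted p under 0.05, the threshold of the methods, with Benjamini-Hochberg adjusted p over all genes beside it. The files hold no counts, so whole reads were recovered with Python 3.11.15 from the steps of the TPM (tolerance 0.01) for 18695 of 18702 human and 25107 of 25110 mouse genes with values in at least 4 libraries. Scripts were tested on simulated data before use.

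The genes described and the 8 pathway and 9 marker lists were chosen with earlier results of these data known. Up to 2 genes per list and species with the smallest p under the threshold are named with values. Other genes named from a list were chosen after their values were seen. The values of 1 listed gene are not reported here. Each library is the liver of 1 mouse, per the methods, and humanized mice may share a hepatocyte donor. The smallest chi-square per degree of freedom between recovered reads of replicates was 3.56, so no 2 libraries of the same group agreed within sampling noise. Libraries of different groups were not compared in this way. Mouse places and UTRs come from GENCODE M21 (8 of 9 genes with the same ID version) and promoters from RefSeq. Human places and sequences were not used here. Rows of genes under the filter were not tested.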

Additional observations from a re-analysis of the deposited data

Results flagged for a closer look

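Groups of 4 to 6 livers were searched for a value far from the others, 36 groups in all, of which chance marks about 1 in 20. In 2 groups of WT livers with HuR knockdown 1 value stood out. Nr1i2 was 94.4 TPM in replicate 2, with the other 5 livers at 111 TPM or more, and Rxra was 267 TPM in replicate 6, with the other 5 at 222 TPM or less.

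Responses that differed between humanized and WT livers, by the unadjusted test of the difference itself, were those of NR1I2 (−0.40 on the log2 scale, human minus mouse), RXRA (0.39) and POR (0.92). None of these passed after adjustment (adjusted p = 0.169, 0.0983 and 0.103, limma), and 19.7% of all pairs passed unadjusted. The joint fit takes 1 spread per gene, so its p-values can be too small. Species cannot be told apart here from shRNA, host strain, transplantation and table. For NR1I3 the groups moved in opposite directions, with a difference of 1.25, which was not tested because the gene was chosen for it.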

How the results depend on the processing

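The alternatives were log2(TPM + 0.1), no filter or one at 5 TPM, scaling by median-of-ratios factors, nuclear protein-coding genes or quantiles, limma without the trend, the replicate block, voom on recovered reads, adjusted p and each liver left out. Leaving out both humanized libraries that stood apart was chosen after seeing the data. Over all alternatives, 891 tested values kept their direction and side of the threshold, 69 lost the threshold, 4 gained it and 24 changed sign. Of these, 468 of the kept and 37 of the lost values belong to genes named from the pathway lists. Those genes were named because they passed the threshold in these data, so they could not gain it, and the tally is no measure of stability for them. NR1I3 and SLC13A5 kept their direction in both species throughout, which is a description, since both were chosen for their response. Of 7 human genes tested, 3 were past the threshold, and 2 with median-of-ratios, protein-coding or quantile scaling. It was 1 with no filter, 1 without trend, 0 after adjustment and 1 to 3 with a liver left out. The cause was not tested. Of 7 mouse genes it was 2, and 1 with median-of-ratios scaling, 1 with quantile scaling, 1 with the replicate block, 0 after adjustment and 1 to 2 with a liver left out. For the difference between the 2 sets it was 3, then 2 with median-of-ratios scaling, 0 after adjustment and 2 to 5 with a liver left out. Of human pathway genes 20 were called (0 adjusted, 12 to 27 with a liver left out), and of mouse pathway genes 24 (2 adjusted, 19 to 28). Over all genes, 1461 human genes were called, 931 with the filter at 5 TPM, 27 after adjustment and 1098 to 1958 with a liver left out, and 2418 mouse genes, 134 after adjustment and 1911 to 2856. Without both libraries that stood apart, 3 of the 7 human genes, 26 pathway genes and 2011 genes in all were called. Small values changed sign. AHR in humanized livers ranged from −0.21 to 0.29 with a liver left out, and ALAS1 there from −0.22 (without HuR knockdown replicate 4) to 0.68. In WT livers Ahr ranged from −0.024 (without LacZ replicate 2) to 0.12 and Abcc3 from −0.0031 (without LacZ replicate 5) to 0.11. The human minus mouse difference of AHR was 0.075 with median-of-ratios, 0.063 with protein-coding and 0.056 with quantile scaling, 0.015 without both libraries, and −0.25 to 0.25 with a liver left out, and that of ALAS1 −0.34 to 0.57. Livers with the same replicate number showed little shared deviation (r from −0.249 to 0.137 in humanized and from −0.142 to 0.206 in WT livers), and the main fits left the livers unpaired. These correlations cannot settle whether the numbers pair the livers by donor or day. With the replicate block 2 of 7 human genes were called, and 1401 human and 2242 mouse genes in all. Depth limits Slc13a5, with 2 to 165 reads per WT library.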
